A study of Mus musculus with 18 samples.

Results

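The nuclear-encoded genes of respiratory complexes III, IV and V were followed in retinal pigment epithelium (RPE) of mice. They were taken from the table of gene counts by symbol. A symbol had to begin with Uqcr (complex III), with Cox4, Cox5, Cox6, Cox7 or Cox8 (complex IV) or with Atp5 (complex V), had not to contain -ps, and its row had to average 10 or more counts over the 18 libraries. Of 45 rows with such a beginning, 1 pseudogene row (Cox5b-ps) and 3 rows under the minimum (Cox8c, Cox7b2 and a second Atp5o row at 0 counts) were left out. The remaining 41 genes, of 21859 rows in all, were 8 genes of complex III, 16 of complex IV and 17 of complex V, and all 41 passed the low-count filter of the test. The name rule misses some subunits, such as Cyc1 of complex III, and takes in 1 gene, Cox7a2l, whose product is known chiefly for joining complexes III and IV.

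The study compared 4 groups of mouse RPE. Young (7 libraries) and Old (4 libraries) came from young and aged animals for which no treatment is named. The other libraries came from aged animals given an adeno-associated virus: AAV2-tTA, which carries only the tetracycline-controlled transactivator (Old control, 3 libraries), or AAV2-tTA together with TRE-OSK, which carries Oct4, Sox2 and Klf4 under the promoter that tTA acts on (Old OSK, 4 libraries). Old control thus shared AAV2-tTA with Old OSK and lacked TRE-OSK. The contrast of these groups does not separate OSK from the added TRE-OSK vector. Strain, ages in months, vector doses, times after injection and the promoter driving tTA are not given in the sources used here, nor is the number of animals behind a library.

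Complexes III, IV and V are the last steps of oxidative phosphorylation in the inner mitochondrial membrane. Complex III (ubiquinol-cytochrome c reductase) passes electrons from ubiquinol to cytochrome c, complex IV (cytochrome c oxidase) passes them on to oxygen, and complex V (ATP synthase) uses the proton gradient to make ATP. Each combines mitochondrially encoded protein with many nuclear-encoded subunits, some of which exist as tissue-specific isoforms, for example in heart and skeletal muscle or in testis. The RPE is rich in mitochondria and relies on oxidative phosphorylation, sparing glucose for the photoreceptors it supports.

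Library totals lay between 18104828 and 32348136 counts, and the 41 genes held from 0.59% to 0.789% of them. Among the vector genes, Pou5f1, which encodes Oct4, stood at 50.1 to 97.4 CPM (edgeR's counts scaled to library size) in Old OSK and at most at 3.75 CPM in every other group, and Sox2 at 70.0 to 115 CPM against at most 15.9 CPM. Klf4 stood at 155 to 432 CPM in Old OSK and overlapped with Old (11.7 to 216 CPM). The summed CPM of 8 RPE markers was 27412 to 45362 in Young, 18590 to 32247 in Old, 12105 to 43048 in Old control and 8244 to 17166 in Old OSK, so RPE genes were abundant in every library and lowest in Old OSK. A pair of libraries stood apart by their content of 10 rod photoreceptor markers, Old control replicate 2 (19656 summed CPM) and Old OSK replicate 4 (16421 summed CPM), against 156 to 8115 summed CPM in the other 16. Macrophage and microglia markers summed to 62.5 to 88.9 CPM in Young and to 314 to 736 CPM in Old, with 7 of 8 called higher, against 5.4% of all genes. In that contrast 1 cone marker and 1 endothelium marker were also called higher. In the lists of pericytes and smooth muscle, stroma and melanocytes, 1 marker each was called lower, against 4.16% of all genes. None of the markers of these lists was at 0 in every library of the series. In bulk samples fewer cells of a type and less RNA per cell cannot be told apart. Old control replicate 2 also held a lower RPE marker sum than every library outside Old OSK, and the calls in Old OSK against Old control are also given without it and without Old OSK replicate 4. The 6 libraries with a letter M in their names had summed Y-linked markers of 156.8 to 258.5 CPM, against at most 4.5 CPM in the other 12. They were 3 of 7 in Young, 0 of 4 in Old, 2 of 3 in Old control and 1 of 4 in Old OSK, so this mark was unevenly spread over the groups compared. No label says that libraries of a group came from separate animals, so p-values measure the spread between these libraries only.

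The counts of some members cannot be fully separated from those of other genes. The library kit does not mark strand, and in the annotation 19.7% of the exon bases of Uqcrc2 overlap Pdzd9, 12.7% of those of Atp5j overlap Gabpa, and 47.9% of those of Atp5o overlap other genes, among them a second gene of that name. Atp5g1, Atp5g2 and Atp5g3 encode the same mature protein, and many short members have processed pseudogenes. How reads with several matches were counted is not given in the sources used here.

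Between genes, levels were compared per length, as the mean CPM over the 18 libraries divided by the length of the principal transcript in kilobases. In complex V the highest levels on this scale belonged to the subunits of the catalytic head and stalk, Atp5b (the beta subunit, 628 CPM per kilobase), Atp5h (subunit d, 427) and Atp5a1 (the alpha subunit, 365). In complex IV they belonged to Cox4i1 (669), Cox8a (504) and Cox6a1 (498), the forms of these subunits found in most tissues. Complex III was led by the small subunit Uqcrq (344 CPM per kilobase), while its large core proteins Uqcrc1 and Uqcrc2 stood at 101 and 84.3. The lowest levels in the whole set belonged to alternative isoforms of complex IV, namely Cox4i2 (5.56 CPM per kilobase), Cox6a2 (7.70) and Cox7a1 (18.5). The head subunits Atp5a1 and Atp5b made up between 44.6% and 56.3% of the summed CPM of complex V, depending on the library.

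By complex, the summed CPM of the 8 complex III genes was 868 ± 64.6 in Young (SD, n = 7), 922 ± 27.3 in Old (n = 4), 1034 ± 127 in Old control (n = 3) and 927 ± 119 in Old OSK (n = 4). For the 16 complex IV genes the sums were 1716 ± 150 in Young, 1898 ± 129 in Old, 2139 ± 250 in Old control and 2016 ± 258 in Old OSK. For the 17 complex V genes they were 4183 ± 212, 4129 ± 89.1, 4482 ± 388 and 3898 ± 337 in the same order. The ranges of the groups overlapped for each of these sums. The ratio of complex V to complex IV was 2.24 to 2.62 in Young, 2.05 to 2.37 in Old, 2.04 to 2.18 in Old control and 1.83 to 2.00 in Old OSK, so all 4 Old OSK libraries lay below every library of the other groups. Without the libraries rich in rod markers it was 2.04 to 2.08 in Old control and still 1.83 to 2.00 in Old OSK. Without Atp5a1 and Atp5b, which dominate the numerator, the ratio was 1.06 to 1.23 in Young and 0.978 to 1.01 in Old OSK. These sums and ratios describe genes chosen with earlier results known and carry no test.

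**Figure D1:**
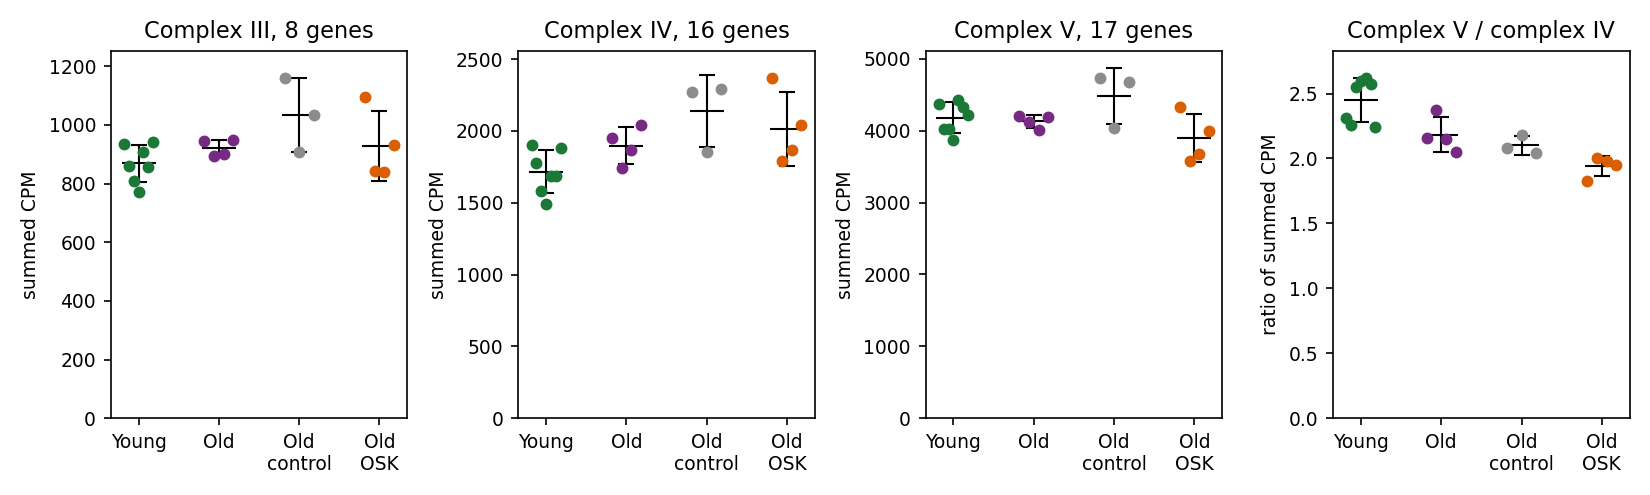
Summed CPM of the 8 complex III, 16 complex IV and 17 complex V genes and the ratio of complex V to complex IV, 1 point a library, with the mean and SD of each group (7 Young, 4 Old, 3 Old control and 4 Old OSK libraries). The sums overlap between groups, while the ratio lies between 1.83 and 2.00 in Old OSK and between 2.24 and 2.62 in Young.

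The comparison of Old with Young asks what differs with age in RPE without a named treatment. 0 of the 41 genes were called (edgeR quasi-likelihood test, adjusted p under 0.05), against 9.56% of the 15944 genes tested, and DESeq2 also called 0, against 14% of its genes. At an unadjusted p under 0.05 there were 9, all higher in Old, which is 22% of the members against 29% of all genes in either direction, 15.6% higher and 13.4% lower. The median log2 fold change was 0.20 in complex III, 0.20 in complex IV and 0.03 in complex V, against 0.00 over all genes tested, and 29 of the 41 lay above 0 against 49.3% of all genes. The 95% interval of the fold lay within 1.5-fold in either direction for 33 of the 41, so age differences beyond that size lay outside the intervals of most members. Macrophage and microglia markers rose with age as given above, and their part in these values was not tested.

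In complex IV, the lowest p belonged to Cox6b1, the common form of subunit VIb, at the outer face of the enzyme where dimers meet (chromosome 7, 30616861 to 30626151, minus strand, build GRCm38). Its lowest, median and highest values in Young were 63.3, 75.5 and 89.4 CPM, and in Old replicates 1 to 4 it stood at 101, 94.96, 95.47 and 119 CPM. All 4 Old libraries lay above all 7 Young libraries, including the 4 Young libraries whose names, like those of Old, lack the letter M. The log2 fold change was 0.40 (SE 0.13), and the adjusted p of 0.0571 missed the threshold. It was the 1 member of 41 (2.44%) whose Old libraries all lay above Young, against 3.69% of all genes tested. In a fit of Old and Young alone Cox6b1 was the only member called (edgeR adjusted p = 0.0385), against 10.9% of all genes. Over its alternatives the adjusted p ranged from 0.0385 to 0.293, the highest with a replicate block.

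Cox5b, which binds zinc at the matrix side of complex IV, ranged from 92.5 to 119 CPM in Young around a median of 102 and stood at 129, 110, 125 and 152 CPM in Old replicates 1 to 4. Its log2 fold change was 0.29 (SE 0.10, edgeR adjusted p = 0.0846), and Old replicate 2 lay within the range of Young. Cox6c, another small subunit, had a log2 fold change of 0.28 (SE 0.12, adjusted p = 0.119). In contrast, Cox4i1, the most abundant complex IV transcript per length, had values of 428 to 545 CPM in Young and 443 to 498 CPM in Old. Its log2 fold change of -0.02 (SE 0.09) had a 95% interval of the fold from 0.859 to 1.12.

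In complex III, Uqcrh, the acidic hinge protein that helps cytochrome c bind, stood at 58.8 to 82.6 CPM in Young (median 68.7) and at 86.5, 75.6, 84.2 and 101 CPM in Old. 3 of the 4 Old libraries lay above all Young libraries, and the log2 fold change was 0.29 (SE 0.11, adjusted p = 0.104). The other small subunits Uqcrb, Uqcr10, Uqcr11 and Uqcrq also had values above 0. The core proteins Uqcrc1 and Uqcrc2 and the Rieske iron-sulfur protein Uqcrfs1 did not. Their log2 fold changes were -0.02 (SE 0.08), -0.11 (SE 0.08) and -0.11 (SE 0.08), with fold intervals from 0.874 to 1.11 for Uqcrc1 and from 0.823 to 1.04 for Uqcrfs1.

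In complex V, Atp5e, the small epsilon subunit of the central stalk, had the lowest p. It ranged from 54.8 to 83.3 CPM in Young around a median of 70.8, and Old replicates 1 to 4 had 93.1, 78.9, 87.2 and 101 CPM (log2 fold change 0.37, SE 0.14, adjusted p = 0.0944). Of the Old libraries, replicate 2 overlapped with Young. The head subunits pointed the other way without passing the test: Atp5b had 1175 to 1373 CPM in Young and 1147 to 1216 in Old (log2 fold change -0.09, SE 0.08), and Atp5a1 892 to 1033 CPM in Young and 818 to 934 in Old (-0.10, SE 0.08).

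**Figure D2:**
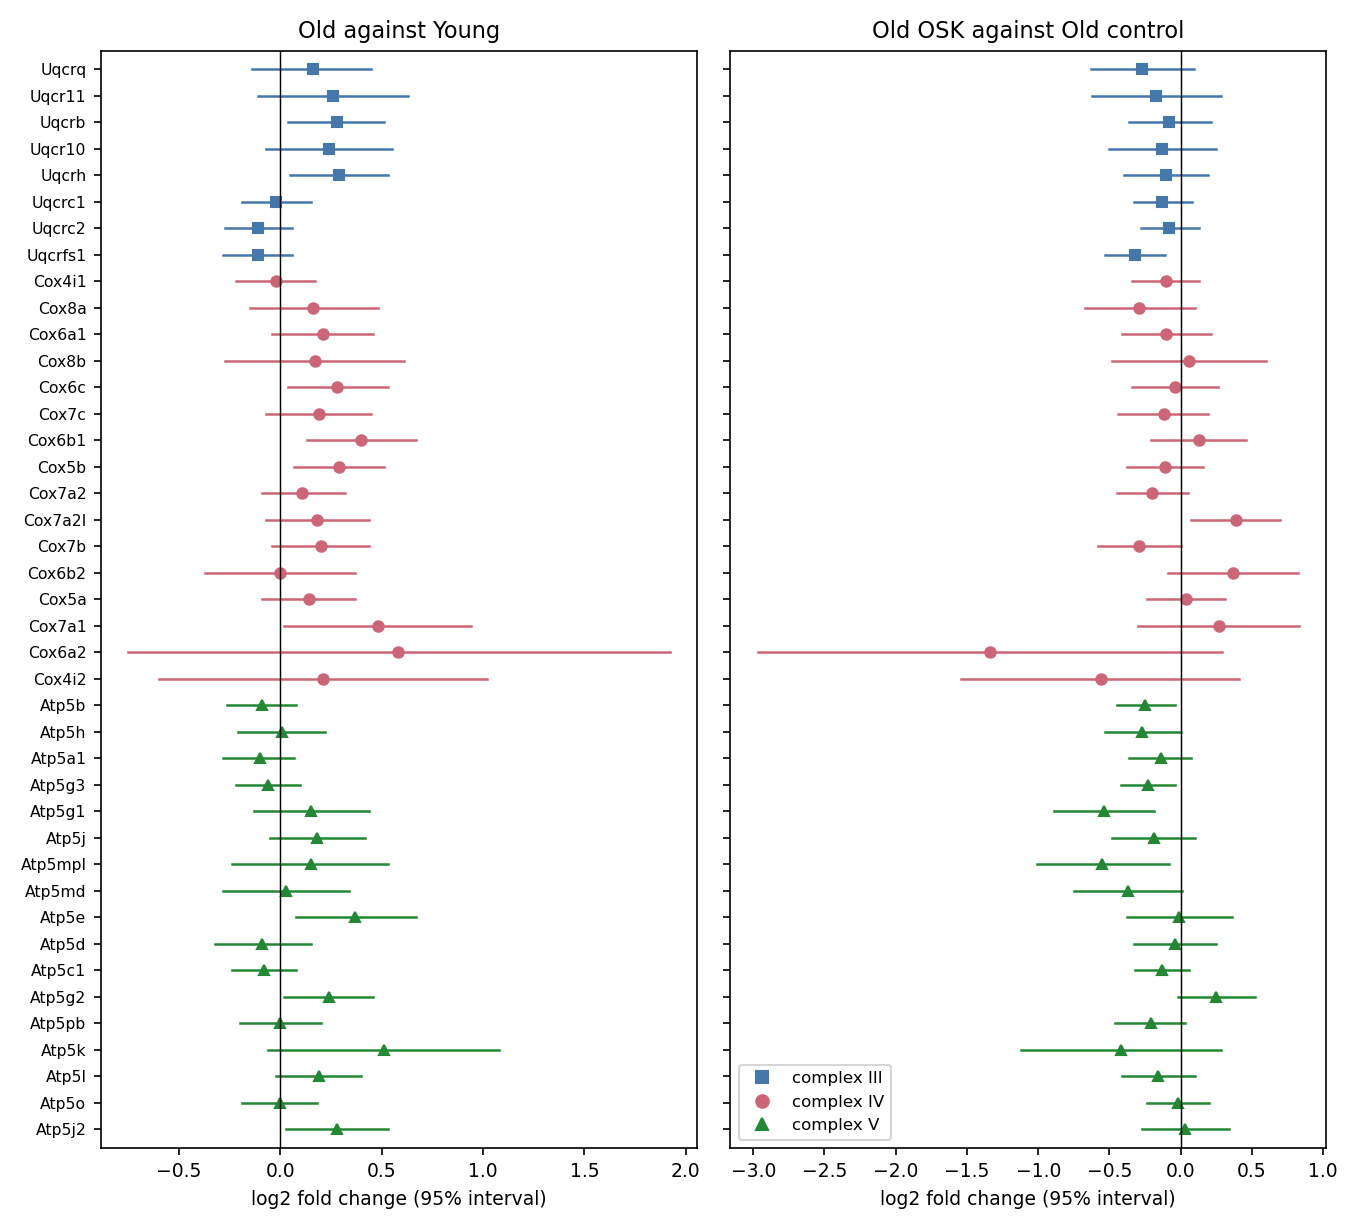
Log2 fold change of each of the 41 genes with its 95% interval, in Old against Young (left) and Old OSK against Old control (right), on x axes of different range. Squares, circles and triangles mark complexes III, IV and V, ordered within each complex from the highest to the lowest mean CPM per kilobase, and most intervals cross 0 in both panels.

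The split between small and large subunits went along with transcript length for the shortest and the longest members. Among the 41 genes, log2 fold change and length had a Spearman correlation of -0.54 in Old against Young, given as a description across genes that share the same libraries. Of the 24 members under 700 bases, 23 lay above 0 with a median of 0.20, and of the 5 of 1500 bases or more (Atp5pb, Atp5b, Atp5a1, Uqcrc1 and Uqcrc2) 0 lay above 0, with a median of -0.09. In this contrast other tested genes of the same lengths showed the same direction: the 434 under 700 bases had a median of 0.23 and the 13049 of 1500 bases or more a median of -0.03, and the correlation over 15880 genes was -0.16. In the other contrasts the short members stood further from other short genes, with medians of -0.12 against 0.06 in Old OSK against Old control and 0.20 against 0.07 in Old control against Old. Library by library, the mean log2 CPM of the short members minus that of the long members was -2.83 to -2.35 in Young and -2.42 to -2.14 in Old. The same difference among other genes was -1.63 to -1.35 in Young and -1.40 to -1.12 in Old. Old control and Old OSK lay at -2.25 to -1.99 and -2.24 to -1.90 for the members. How RNA quality or the amplification of the cDNA enters these values was not tested.

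**Figure D3:**
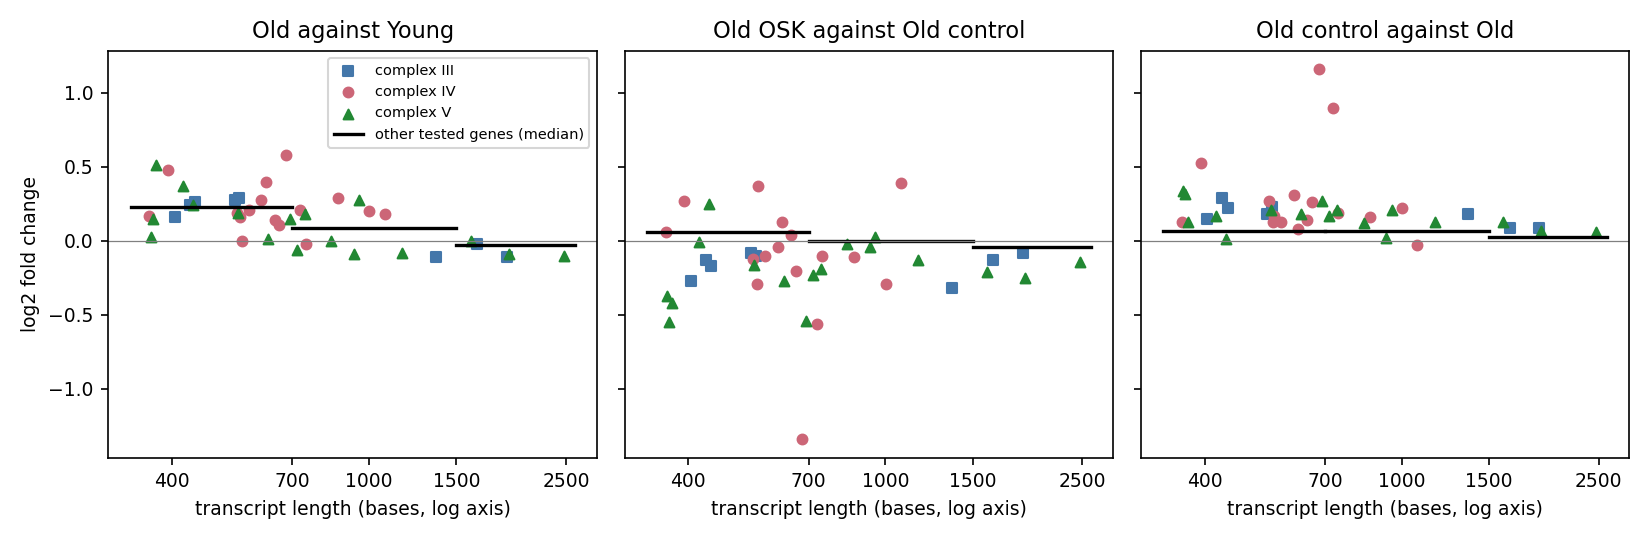
Log2 fold change of the 41 genes against the length of their principal transcript (log axis) in the 3 contrasts, with black lines for the median of other tested genes under 700 bases, of 1500 bases or more, and in between. In Old against Young 23 of the 24 members under 700 bases lie above 0, the 5 longest below, and the 12 in between on both sides. The line of other genes falls from 0.23 to -0.03.

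The contrast of Old OSK with Old control addresses what differs after TRE-OSK was added to AAV2-tTA. 0 of the 41 genes were called (edgeR, adjusted p under 0.05), against 0.728% of all genes tested, and DESeq2 called 1, Atp5b, against 10.2% of its genes. At an unadjusted p under 0.05 there were 7 members, 6 lower (14.6%, against 13% of all genes) and 1 higher (2.44%, against 13.3%). The median log2 fold change was -0.13 in complex III, -0.10 in complex IV and -0.19 in complex V, against -0.03 over all genes, and 33 of 41 lay below 0 against 52.9% of all genes. All 8 complex III genes and 15 of 17 complex V genes were among those below 0. For an alternative fit, the replicate numbers were taken as a pairing of these groups on the correlation of their libraries alone. No label states it, and for number 1 (r = 0.103) the closest partner was number 3. Y-linked markers summed to 185.8 and 198.9 CPM in Old control replicates 2 and 3 but to 0.6 and 0.2 CPM in Old OSK replicates 2 and 3. With the numbers as a block, in the 6 same-numbered libraries, edgeR called 0 members as well, against 3% of all genes (lowest adjusted p 0.0587, for Atp5mpl). RPE markers were lower in Old OSK as given above, with 0 of 8 called, and their part in these values was not tested.

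Uqcrfs1, the Rieske protein that takes the first electron from ubiquinol, stood at 123, 104 and 111 CPM in Old control replicates 1 to 3 and at 102, 84.8, 80.8 and 93.7 CPM in Old OSK replicates 1 to 4 (chromosome 13, 30540308 to 30545362, minus strand). All Old OSK libraries lay below all Old control libraries. The log2 fold change was -0.32 (SE 0.10, edgeR adjusted p = 0.085). Uqcrfs1 and Atp5b were the 2 members (4.88%) lower without overlap, against 5.84% of all genes.

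Atp5g1, 1 of 3 genes that encode the same mature c-ring protein of complex V, stood at 259, 138 and 223 CPM in Old control and at 170, 118, 132 and 149 CPM in Old OSK (chromosome 11, 96068852 to 96075670, minus strand). Old control replicate 2, the library richest in rod markers, lay among the Old OSK libraries, and the other 2 lay above all of them. Young ranged from 137.7 to 174.6 CPM and Old from 167.6 to 174.8 CPM. The same 2 Old control libraries thus also lay above every Young and Old library. The log2 fold change in Old OSK against Old control was -0.54 (SE 0.16, edgeR adjusted p = 0.085). The other c-ring genes had log2 fold changes of -0.23 (Atp5g3) and 0.25 (Atp5g2). Atp5b stood at 1254, 1187 and 1318 CPM in Old control and at 1082, 996, 1036 and 1115 CPM in Old OSK, without overlap (log2 fold change -0.25, SE 0.10, adjusted p = 0.134). Its fold of 0.844 had a 95% interval from 0.731 to 0.973.

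Cox7a2l, the supercomplex factor that joins complexes III and IV, was the member highest in Old OSK relative to Old control. It had 78.9, 108 and 80.6 CPM in Old control and 133, 117, 115 and 101 CPM in Old OSK (log2 fold change 0.39, SE 0.15, adjusted p = 0.126). Again Old control replicate 2 lay within the Old OSK range. In Old, replicate 4 had 120 CPM and the other 3 libraries 76.6 to 87.2 CPM, while Young ranged from 68.9 to 86.6 CPM.

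The calls of this contrast changed when a library rich in rod markers was left out. Without Old control replicate 2, 4 members were called, against 18.2% of all genes. They were Atp5g1 (log2 fold change -0.79, adjusted p = 0.00446), Uqcrfs1 (-0.40, adjusted p = 0.0277), Atp5mpl, a small membrane subunit of complex V, and, higher, Cox7a2l (0.52, adjusted p = 0.0314). Without Old OSK replicate 4, 1 member was called, Uqcrfs1 (-0.38, adjusted p = 0.0444), against 10.8% of all genes. Without both of these libraries 6 were called, against 24.2% of all genes: Atp5g1, Uqcrfs1, Atp5mpl, Cox8a and Atp5b lower, and Cox7a2l higher. The share of members called under these fits, at most 6 of 41, lay below that of all genes each time. Over the other fits that each left out a library, 0 members were called. With the rod score (the mean log2 CPM of the rod markers) as a covariate in all 18 libraries, 0 members were called as well, against 0.834% of all genes, and the values were -0.51 for Atp5g1 (adjusted p = 0.093, the lowest of the members) and -0.32 for Uqcrfs1.

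Setting Old control beside Old serves to see what differs after AAV2-tTA alone. 0 of the 41 genes were called, against 0% of all genes tested, and DESeq2 called 0. At an unadjusted p under 0.05 there were 2, Cox6c and Cox7a2 (4.88%, against 3.74% of all genes). The log2 fold changes leaned one way: 40 of 41 lay above 0 against 57.4% of all genes, with a median of 0.17 against 0.04, and Cox7a2l was the exception at -0.03. Cox6c had 115, 142 and 119 CPM in Old control and 97.4, 94.1, 90.6 and 122 CPM in Old, a log2 difference of 0.31 (SE 0.14, adjusted p = 0.9). Only the highest Old library, replicate 4, overlapped with Old control. Atp5g3, Cox7c and Atp5c1 were higher in Old control without overlap (7.32% of members, against 2.25% of all genes). This contrast shares the Old libraries with the first and the Old control libraries with the second, so values of the 3 contrasts are not independent of each other.

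Complex IV exchanges several subunits for isoforms, and 5 pairs of such genes passed the count minimum. Each alternative isoform was expressed as its share of the pair on the scale of CPM per length. Cox8b, a heart and muscle form in the mouse, made up 31.4% ± 2.61 of the pair with Cox8a in Young (SD, n = 7), 31.4% ± 3.88 in Old (n = 4), 31.6% ± 1.88 in Old control (n = 3) and 36.9% ± 3.01 in Old OSK (n = 4). Cox6b2, known as the testis form, made up 31.9% ± 4.13, 26.4% ± 3.50, 27.3% ± 5.94 and 31.5% ± 5.23 of its pair with Cox6b1 in the same order of groups. In every library both forms had a larger share of their pair than the other 3 alternative isoforms had of theirs.

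Cox7a1, the heart and muscle form of subunit VIIa, made up 10.2% ± 2.56 of its pair with Cox7a2 in Young, 12.8% ± 2.14 in Old, 15.1% ± 2.77 in Old control and 19.7% ± 2.23 in Old OSK. Its own level was 2.81 to 6.36 CPM in Young with a median of 4.22, and in Old replicates 1 to 4 it was 6.66, 4.29, 6.52 and 8.22 CPM. In Old control it stood at 7.72, 11.5 and 8.65 CPM and in Old OSK at 13.8, 10.0, 8.85 and 12.1 CPM. In each of the 3 contrasts the libraries of the 2 groups overlapped. The log2 fold change of Cox7a1 was 0.48 in Old against Young (SE 0.22, adjusted p = 0.158), 0.53 in Old control against Old (SE 0.26, adjusted p = 0.9) and 0.27 in Old OSK against Old control (SE 0.27, adjusted p = 0.576).

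Cox6a2, the muscle form of subunit VIa, and Cox4i2, the form of subunit IV known from lung and oxygen sensing, were scarce. Cox6a2 made up 1.06% ± 0.838 of its pair with Cox6a1 in Young, 1.38% ± 0.673 in Old, 3.08% ± 2.01 in Old control and 1.25% ± 0.597 in Old OSK. For Cox4i2 the share of its pair with Cox4i1 was 0.646% ± 0.198, 0.745% ± 0.242, 1.29% ± 1.18 and 0.880% ± 0.417 in the same order. The mean of Cox4i2 in Old control rests on replicate 2 (2.64%, against 0.460% and 0.777% in the others). Its log2 fold change in Old control against Old was 0.90 with that library and 0.03 without it. Cox4i2 was highest in Old control replicate 2 and Old OSK replicate 4 (12.5 and 7.72 CPM), the libraries rich in rod markers, against 2.18 to 4.84 CPM in the other 16.

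None of the 15 comparisons of isoform ratios passed a two-sided exact permutation test over libraries after Benjamini-Hochberg adjustment (lowest adjusted p 0.429). In 10 of the 15 the smallest p the design allows, 0.0286, adjusts to 0.429 when it is the only low one, so these tests could hardly pass and say nothing of stability. In the 5 of Old against Young the smallest p of 0.00303 adjusts to 0.0455 in the same way. The lowest unadjusted exact p was 0.0576, for a lower log2 ratio of Cox6b2 to Cox6b1 in Old than in Young (difference -0.38). In Old OSK against Old control, both Cox7a1 over Cox7a2 (difference 0.47) and Cox8b over Cox8a (difference 0.34) gave an exact permutation p of 0.0857.

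**Figure D4:**
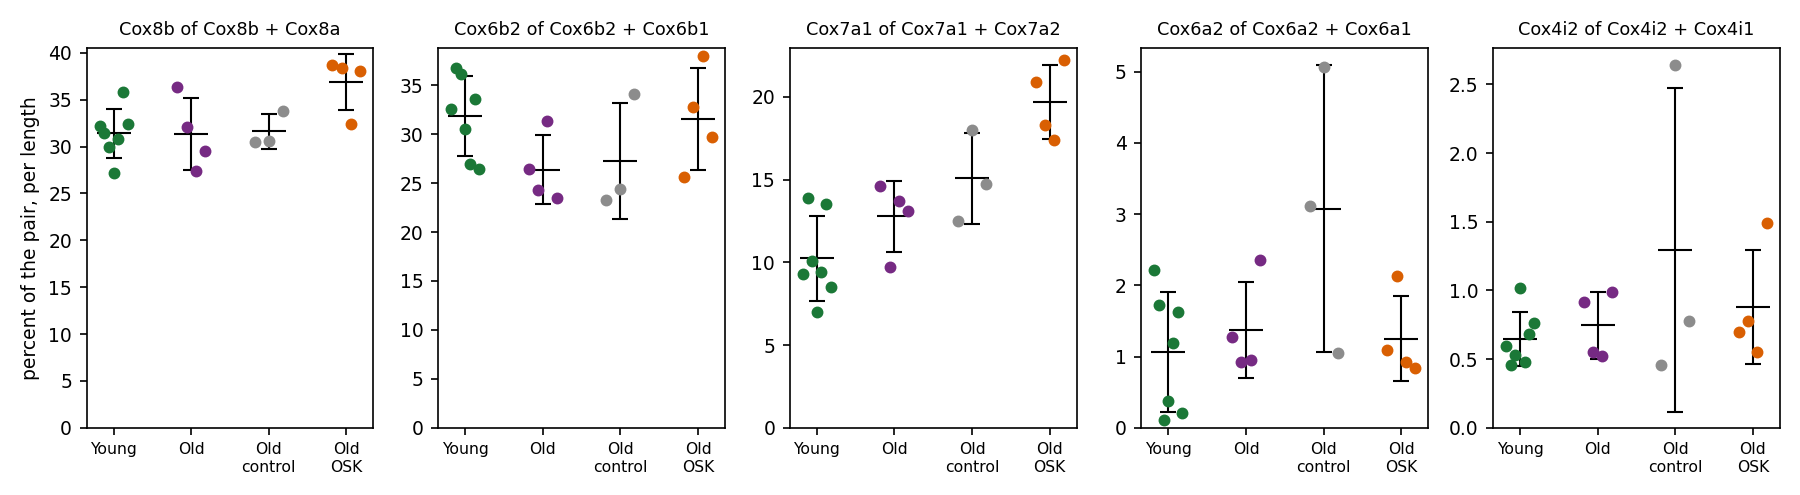
Share of each alternative complex IV isoform in the pair with its common form, as percent of CPM per length, 1 point a library with the mean and SD of each group (7 Young, 4 Old, 3 Old control and 4 Old OSK libraries; the y axes differ). Cox8b runs from 27.2% to 38.7% and Cox6b2 from 23.3% to 38.0%, Cox6a2 and Cox4i2 stay at or below 5.07%, and in every pair the libraries of compared groups overlap.

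Because several of these isoforms are typical of muscle, their levels were set beside 10 markers of striated muscle, such as the muscle attached to the outside of the eye, whose summed level ranged from 31.0 to 1208 CPM over the libraries. Over the 18 libraries, log2 CPM of Cox6a2 correlated with the log2 sum of these markers with Pearson's r = 0.97 and Spearman's rho = 0.95 (permutation p = 1e-05 for each, the smallest that 100000 resamples can give; adjusted p = 5e-05 over 5 relations). Without the 2 libraries farthest from the median r was 0.94. Within the 12 libraries without M in their names r was 0.97, within the 6 with M it was 0.96, within the 7 Young libraries it was 0.97, and after subtraction of the group means it was 0.96. For Cox7a1 r was 0.52 and rho 0.37 (permutation p = 0.0278 and 0.134, adjusted p = 0.0694 and 0.335), and without the 2 farthest libraries r was 0.22. The pooled relation of Cox7a1, which did not pass after adjustment, thus rested on those libraries. Its r was 0.56 in the 12 libraries without M, 0.40 in the 6 with M, 0.69 in the 7 Young libraries and 0.53 after subtraction of the group means. For Cox8b, Cox6b2 and Cox4i2 r was 0.23, 0.15 and 0.20, with adjusted permutation p of 0.541 for each. The sign of r for Cox8b differed between subsets: 0.56 in the 12 libraries without M and -0.65 in the 6 with M. It was 0.53 in the 7 Young libraries and -0.34 without the 2 farthest libraries. The part of muscle in the Cox7a1 differences between groups was not tested.

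**Figure D5:**
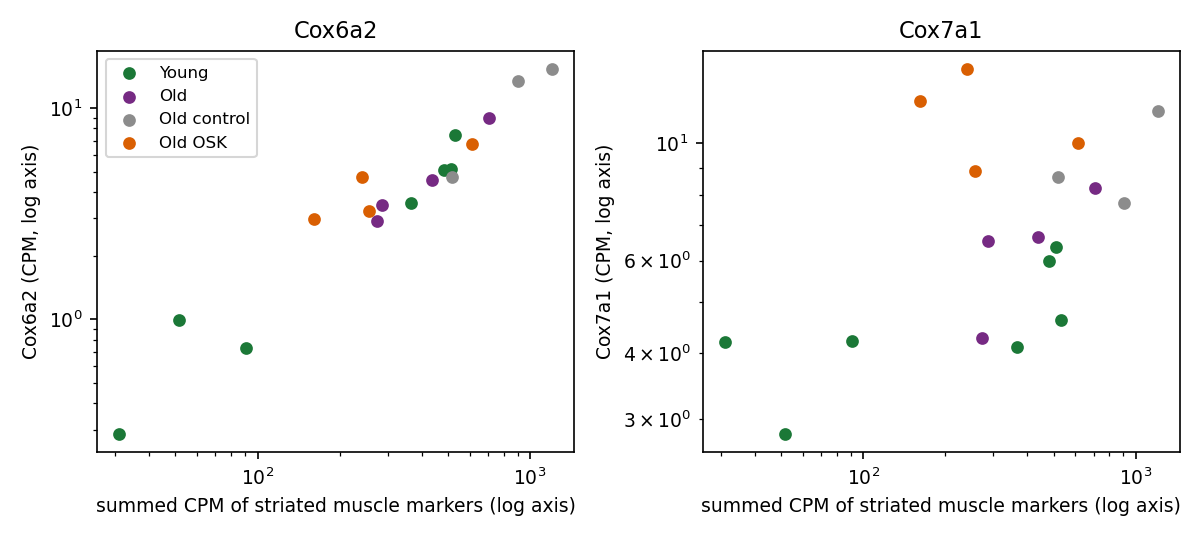
CPM of Cox6a2 (left) and Cox7a1 (right) against the summed CPM of 10 striated muscle markers in the 18 libraries, coloured by group, on log axes. Cox6a2 follows the marker sum over the whole range (r = 0.97), and Cox7a1 does so less (r = 0.52).

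The same complexes need further proteins, which were read from lists of subunits the name rule leaves out, mitochondrially encoded subunits, assembly factors and regulators. Between Old and Young, 1 of 62 listed genes tested was called, against 9.56% of all genes. This was Atpif1, the inhibitor of ATP synthase that blocks ATP hydrolysis. It stood at 20.8 to 26.3 CPM in Young (median 22.9) and at 28.8, 29.0, 33.1 and 52.1 CPM in Old replicates 1 to 4. All lay above Young, against 3.69% of all genes higher without overlap. The log2 fold change of Atpif1 was 0.60 (SE 0.18, adjusted p = 0.0426 in edgeR's quasi-likelihood test). In the same-numbered libraries it was 0.52 without a replicate block (adjusted p = 0.175) and 0.48 with it (adjusted p = 0.364). The call was lost with M as a covariate (0.55, adjusted p = 0.107), with the rod score as a covariate (0.56, adjusted p = 0.146) and when Old replicate 4 was left out (0.36, adjusted p = 0.253). It held without Young replicate 3 or Old replicate 1, and in the other 8 fits without a library the adjusted p lay above the threshold. In Old control Atpif1 had 26.7, 45.5 and 32.5 CPM, and in Old OSK 63.2, 51.3, 49.6 and 36.8 CPM (log2 fold change 0.52, SE 0.22, adjusted p = 0.148). In that contrast Atpif1 was called higher without Old control replicate 2 (0.73, adjusted p = 0.0381, against 18.2% of all genes called) and without both libraries rich in rod markers (0.84, adjusted p = 0.0171, against 24.2%). The value was 0.34 when Old control replicate 1 was left out (adjusted p = 0.482).

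In Old OSK against Old control 0 of the listed genes were called (edgeR, adjusted p under 0.05), against 0.728% of all genes. The lowest p among them belonged to Ppargc1a, the coactivator PGC-1α that drives mitochondrial biogenesis. It stood at 69.9, 44.1 and 66.8 CPM in Old control and at 37.4, 41.4, 39.7 and 43.9 CPM in Old OSK, all below Old control, though Old control replicate 2 nearly touched them (log2 fold change -0.57, SE 0.14, adjusted p = 0.0588). With age its values were 69.7 to 84.0 CPM in Young and 65.1, 58.5, 64.0 and 48.5 CPM in Old, also without overlap (log2 fold change -0.34, SE 0.11, adjusted p = 0.0627). In that contrast 5.61% of all genes lay lower without overlap, among the listed genes also Hif1a. Ttc19, which clears fragments of the Rieske protein from complex III, had 45.7, 39.7 and 46.6 CPM in Old control and 25.4, 30.3, 28.2 and 35.3 CPM in Old OSK (log2 fold change -0.56, SE 0.14, adjusted p = 0.0625). Cycs, the electron carrier cytochrome c, had a log2 fold change of -0.29 (SE 0.09, adjusted p = 0.0856), again with all Old OSK libraries below Old control. Among the listed genes Cyc1, mt-Cytb, Hccs, Cox18, Cox19, Gabpa and Tfb2m also lay lower without overlap, as did 5.84% of all genes. With all libraries kept, DESeq2 called Ppargc1a and Ttc19 lower (adjusted p = 0.0153 and 0.0141) and not Cycs (0.0547), against 10.2% of its genes. With a stricter filter, a mean of 50 or more counts, edgeR also called Ppargc1a and Ttc19 (adjusted p = 0.0495 each), against 1.25% of its genes. In edgeR, calls of Ppargc1a, Ttc19 and Cycs were absent in a fit of the 2 groups alone (adjusted p = 0.192, 0.192 and 0.227). They were also absent with M as a covariate (0.123, 0.123 and 0.175) and without Old control replicate 1 (0.322, 0.284 and 0.344). Without Old control replicate 2 these 3 genes were called lower, Ppargc1a at -0.78 (adjusted p = 0.00333), Ttc19 at -0.66 (adjusted p = 0.011) and Cycs at -0.35 (adjusted p = 0.0267), against 18.2% of all genes. Without both libraries rich in rod markers they were called at -0.84, -0.77 and -0.35 (highest adjusted p 0.0309, against 24.2% of all genes), and without Old OSK replicate 4 Ppargc1a and Ttc19 were called (adjusted p = 0.0227 and 0.0139, against 10.8%) while Cycs was not (0.0523). The list medians in this contrast were -0.24 for 7 complex III assembly factors, -0.18 for 23 complex IV assembly factors, -0.17 for 6 complex V assembly factors and -0.03 for 16 regulators, against -0.03 over all genes.

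The mitochondrially encoded subunits gave uneven values. mt-Co1, the catalytic core of complex IV, stood at 22230 ± 2770 CPM in Young (SD, n = 7), 19960 ± 1470 in Old (n = 4), 21250 ± 1850 in Old control (n = 3) and 19750 ± 735 in Old OSK (n = 4), with 0 of the 6 mitochondrial subunits called in any contrast. mt-Cytb of complex III had 12740 ± 1690 CPM in Young. mt-Co2, mt-Co3 and mt-Atp6, which are cut from the same long mitochondrial precursor as mt-Co1, stood only at 26.1 to 65.0 CPM in the libraries. What lowered their counts was not tested, and their levels are not set against the nuclear subunits.

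Across the 18 libraries most of the 41 genes moved with each other. The correlation of a gene's log2 CPM with the mean of the other members was highest for Atp5j (r = 0.94), Uqcr10 and Cox7c (0.91 each), and lowest for Atp5a1 (-0.06), Atp5b (-0.04) and Uqcrc2 (0.02), all long transcripts. These values describe libraries that share depth, scaling and group, and carry no test. Among 10195 other genes, those whose log2 CPM followed the mean of the members most closely were Ndufb6 (r = 0.95), Ndufb7 (0.93), Mrpl28 (0.93), Ndufc1 (0.93), Mrpl51 (0.91) and Ndufa2 (0.91) over 18 libraries. The Nduf genes encode subunits of complex I and the Mrpl genes proteins of the mitochondrial ribosome.

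The promoters of the members were searched for short motifs, as a description of sequence. Whether the motifs bear on how the members moved with each other was not tested. Windows from 250 bases before to 50 bases after the transcript start, from RefSeq (GRCm38.p6), were found for 32 of the 41 genes and not for Atp5a1, Atp5mpl, Cox4i1, Cox4i2, Cox6a2, Cox6c, Uqcrb, Uqcrc2 and Uqcrq. Motifs were searched on both strands. The NRF1 motif, a pair of GCGC blocks around an A and any base (as in GCGCATGCGC), was in 25% of the member windows, in 5.19% of all 27025 genes with a window and in 9.63% of the 12477 other genes tested here. The ETS motif CCGGAAG, recognised by GABP among others, was in 34.4%, 9.93% and 16.9%. The YY1 motif AAGATGG was in 12.5%, 7.28% and 7.51%, the Sp motif GGGCGG in 34.4%, 38.2% and 63.7%, and TATAAA in 9.38%, 15.7% and 10.1%. Genes with none of the NRF1, ETS, YY1 and Sp motifs made up 25%, 53% and 27.2%. A match is a description of letters and not a bound site, and these shares carry no test.

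The stretches shown end before the transcript start and hold no annotated exon. They were chosen to set a gene with NRF1 motifs (Cox6a1), 2 small subunits with an ETS motif that stood higher in Old without passing (Uqcr11 and Atp5e), the abundant head subunit that did not move with the others (Atp5b) and an isoform pair (Cox8a and Cox8b) side by side. Sequences run from 5′ to 3′ on the gene's strand in build GRCm38, and capitals mark matches to the NRF1, ETS or Sp motif on either strand.
Cox6a1, chr5:115348982-115349129, minus strand: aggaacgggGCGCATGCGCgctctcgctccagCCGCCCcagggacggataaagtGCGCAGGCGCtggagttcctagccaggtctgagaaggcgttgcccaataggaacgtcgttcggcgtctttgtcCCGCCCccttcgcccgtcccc
Uqcr11, chr10:80406831-80407021, minus strand: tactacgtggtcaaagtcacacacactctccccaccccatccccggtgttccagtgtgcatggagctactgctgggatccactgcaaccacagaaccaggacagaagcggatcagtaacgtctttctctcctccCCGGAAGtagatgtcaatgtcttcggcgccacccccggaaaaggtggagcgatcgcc
Atp5e, chr2:174464106-174464301, minus strand: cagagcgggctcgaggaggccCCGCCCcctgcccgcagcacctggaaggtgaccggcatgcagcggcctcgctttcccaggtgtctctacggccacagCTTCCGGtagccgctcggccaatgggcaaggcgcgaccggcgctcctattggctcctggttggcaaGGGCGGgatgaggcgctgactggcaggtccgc
Atp5b, chr10:128083107-128083272, plus strand: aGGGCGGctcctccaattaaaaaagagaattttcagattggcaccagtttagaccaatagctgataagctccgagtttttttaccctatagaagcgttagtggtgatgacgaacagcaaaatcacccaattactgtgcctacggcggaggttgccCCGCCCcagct
Cox8a, chr19:7217617-7217816, minus strand: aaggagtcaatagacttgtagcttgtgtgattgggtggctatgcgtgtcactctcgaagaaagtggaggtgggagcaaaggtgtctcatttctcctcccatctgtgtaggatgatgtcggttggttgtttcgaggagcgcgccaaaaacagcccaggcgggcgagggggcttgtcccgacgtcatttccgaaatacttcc
Cox8b, chr7:140900447-140900646, minus strand: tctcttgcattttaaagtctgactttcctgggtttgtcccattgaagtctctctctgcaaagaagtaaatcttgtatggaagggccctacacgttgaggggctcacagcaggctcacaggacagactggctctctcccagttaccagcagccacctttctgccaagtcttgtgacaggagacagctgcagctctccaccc
In the Cox6a1 stretch the letters GCGCATGCGC and GCGCAGGCGC match the NRF1 motif and CCGCCC is the Sp motif on the other strand. Uqcr11 holds CCGGAAG, and Atp5e holds the same ETS motif on the other strand as CTTCCGG between a pair of Sp matches. Atp5b holds Sp matches only, at the ends of the stretch. The printed stretches of Cox8a and Cox8b hold no match. Outside them, the searched Cox8a window holds an ETS match across the transcript start and another after it, and the Cox8b window holds TATAAA after the start. The share of G and C was 66.9% in the Cox6a1 stretch, 70.4% in Atp5e, 47.6% in Atp5b, 53% in Cox8a and 51.5% in Cox8b.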

How the data were processed

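PolyA RNA from TRIzol extracts was turned into full-length cDNA by a SMART-Seq kit and sequenced as Nextera XT libraries, per the labels' protocols. The table the authors deposited holds raw counts per gene of 18 libraries. STAR 2.7.1a and featureCounts 1.6.2 are named in the submitters' processing notes, with the builds GRCm38/mm10 and GRCh38/hg38 and no role for either. The strand setting and annotation are not given in the sources used here. Columns were matched to libraries by title, and 0 columns were left unused.

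Rows were filtered with filterByExpr of edgeR 4.0.16 in R 4.3.3 (minimum count 10, minimum total 15), which left 15944 rows. After TMM scaling, the 18 libraries entered a single fit with 4 group means by edgeR's quasi-likelihood test, with Benjamini-Hochberg adjustment over all tested rows and a threshold of 0.05. CPM values are edgeR's after TMM, and log2 CPM used a prior count of 2. Intervals are 95% intervals of the log2 fold change from the fit's standard error. Positions and transcript lengths are from GENCODE M21 (GRCm38), in which 21785 of 21859 rows were found by name. Isoform ratios used a prior count of 2. Promoter sequences are from RefSeq (GRCm38.p6). Scripts were tested on simulated counts.

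Replicate libraries of a group differed by at least 19.1 in chi-square per gene, so none was merged. Libraries of Old OSK and Old control with the same number deviated together from their group means (r = 0.103, 0.421 and 0.339, all above 0.1). For number 1 the closest partner was number 3. The numbers were taken as a pairing for that contrast on this check alone, though Y-linked markers differed within numbers 2 and 3 as given above. In the other contrasts the numbers were not taken as a pairing. The main fit held no replicate block, which entered only among the alternatives. The names of 6 libraries (Young replicates 5 to 7, Old control replicates 2 and 3, Old OSK replicate 4) carry a letter M that the labels do not explain.

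Members and lists were chosen with earlier results of these data known. Named with values were members called in any contrast, the 4 with the lowest p in each contrast, the 2 highest of each complex, the isoform pairs with Cox7a2l and Atpif1, and up to 6 genes of like pattern above a log2 CPM of 3 on average. Other genes were named after their values were seen. Alternatives were median-ratio size factors, no filter, a mean of 50 counts, robust empirical Bayes, M or a rod score as a covariate, DESeq2 1.42.0, the 2 compared groups alone, a replicate block, each library left out, and a prior count of 0.5 for ratios. Leaving out both libraries rich in rod markers was added after seeing the data. Counts were not read as molecules, since reads were amplified by PCR.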

Additional observations from a re-analysis of the deposited data

Results flagged for a closer look

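For some of the genes and sums, and not for every member, 78 groups of values within groups of 4 or 7 libraries were tested for a library far from the others. Of these, 1 was so, and chance gives about 5% of such groups. Cox7a2, the common form of complex IV subunit VIIa, stood at 91.63 CPM in Old replicate 4 and between 65.13 and 69.18 CPM in the other 3 Old libraries, so that the gap filled 0.847 of the group's range. The same library held the highest Old values of Cox6b1 (119 CPM), Cox7a2l (120 CPM) and Atpif1 (52.1 CPM) and the lowest RPE marker sum of Old (18590 CPM). Without it, the log2 fold change of Cox6b1 in Old against Young was 0.32 (edgeR adjusted p = 0.245).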

How the results depend on the processing

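Over all alternatives, members called stayed at 0 in Old control against Old (17 alternatives), in 20 of 21 in Old against Young and in 14 of 18 in Old OSK against Old control. The exceptions were the 2 compared groups alone (1, Cox6b1, in Old against Young), DESeq2 (1, Atp5b, in Old OSK against Old control), single libraries left out in Old OSK against Old control (0 to 4 members, with 4 without Old control replicate 2 and 1 without Old OSK replicate 4) and both rod-rich libraries left out (6 members and a complex III median of -0.28; without a single library it was -0.26 to -0.06). The shares of all genes called in these fits were, in the same order, 10.9%, 10.2%, 18.2%, 10.8% and 24.2%. Among all genes, calls in Old OSK against Old control moved from 116 to 1583 with DESeq2, and in Old against Young from 1524 to 2450. The replicate block changed no call of a member: in Old OSK against Old control 0 members and 478 genes were called with it and 956 genes without it in the same libraries, and in Old against Young 1 and 171 genes. Directions changed for genes far from the threshold. Cox6b2 in Old against Young was 0.00 with median-ratio size factors, no filter or DESeq2, 0.01 in the 2 groups alone, 0.03 with a mean of 50 counts, 0.13 with the rod score and -0.10 to 0.10 without a library. Cox4i2 in Old against Young was -0.39 with the rod score. Cox8b in Old OSK against Old control was -0.01 with the replicate block, -0.02 in the same libraries without it, -0.29 without both rod-rich libraries and -0.19 to 0.21 without a library, and in Old against Young it was -0.02 to 0.26. Cox4i2 in Old OSK against Old control was -1.01 to 0.29, the highest without Old control replicate 2. Without a library, differences in log2 ratio ran from -0.12 to 0.08 for Cox8b over Cox8a in Old against Young and from -0.07 to 0.13 in Old control against Old, from -0.19 to 0.20 for Cox6b2 over Cox6b1 in Old control against Old, and for Cox4i2 over Cox4i1 from -0.81 to 0.45 in Old OSK against Old control and from -0.26 to 1.00 in Old control against Old. The causes were not tested. With 3 or 4 libraries in most groups, 13 of the 41 fold intervals in Old OSK against Old control reach beyond 1.5-fold.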
